A study of Mus musculus with 3 samples.

Results

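The nuclear genes of oxidative phosphorylation were followed across the cell classes of the mouse diaphragm and across diet and genotype. Members were chosen by symbol alone: the Nduf subunit genes with the letters a, b, c, s or v and a number, Ndufab1, Sdha to Sdhd, every symbol starting with Uqcr or Atp5, and the Cox4 to Cox8 subunit genes. A further requirement of at least 100 unique molecular identifiers (UMIs, each standing for 1 captured mRNA molecule) over the 3 libraries kept 82 of the 84 matching symbols among 32285 genes. The lowest member inside this limit was Cox4i2, with 348 UMIs, and the 2 symbols outside it were Cox7b2, with 1 UMI, and Cox8c, with 0. By name, 37 members belonged to complex I, 4 to complex II, 8 to complex III, 16 to complex IV and 17 to complex V. Ndufa4 was counted with complex I by its name, although the protein is now assigned to complex IV, and Cox7a2l encodes an assembly factor of supercomplexes rather than a catalytic subunit.

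Oxidative phosphorylation takes place in the inner mitochondrial membrane. Complex I oxidizes NADH and complex II oxidizes succinate, and both pass electrons through ubiquinone to complex III, from there through cytochrome c to complex IV, and so to oxygen. The protons pumped on the way drive complex V, the ATP synthase. Complex II is encoded by nuclear genes alone, whereas the other complexes combine nuclear-encoded subunits with subunits encoded by mitochondrial DNA, which form much of their catalytic core in the membrane. Several complex IV subunits exist as pairs of isoforms. Cox4i2 is known from lung and from cells that sense oxygen, and Cox6a2, Cox7a1 and Cox8b from heart and striated muscle.

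Mononuclear cells of the costal diaphragm were sequenced by single-cell RNA-Seq (10x Genomics 3′ chemistry) as 3 libraries, 1 per group. WT CD came from wild-type (C57Bl/6J) mice on control diet for 6 months, WT HFD from C57Bl/6J mice on a high-fat diet (45% of kcal as lipid) for 6 months, and KO HFD from Thbs1-/- mice (B6.129S2-Thbs1tm1Hyn/J) on the same high-fat diet. Thbs1 encodes thrombospondin 1, a secreted matrix protein. The text of the study gives 2 mice per group, describes the diaphragms of male mice as pooled, and states that all mice ate chow until 2 months of age, and the labels state that dead cells were excluded by flow cytometry. The libraries held 4132, 3774 and 4369 cell barcodes in the order WT CD, WT HFD and KO HFD, which is the order of all sets of 3 values that follow, and 34312860, 31967976 and 36478779 UMIs. Differences between libraries therefore had no replicates, pooled diet or genotype with everything else that set a library apart, and were not tested.

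Thbs1 mRNA was detected in the library labelled KO HFD, over all cells at a level below WT HFD and above WT CD. Over all cells it was detected at 136, 202 and 163 CPM (the share of a gene among the UMIs of the same cells, on a scale where 10000 CPM is 1%). In macrophages it was detected at 104, 333 and 88.6 CPM, in neutrophils at 3761, 3740.4 and 1707 CPM, and in fibro-adipogenic progenitors at 191, 230 and 224 CPM. By class, the library labelled KO HFD held the highest level in 8 of 14 classes and the lowest in 4. It was lowest in macrophages and neutrophils, in tenocytes (2002, 1020 and 347 CPM) and in mural cells (183, 276 and 93.8 CPM). Of the 8, Schwann, dendritic, B and T or NK cells had at most 4 Thbs1 UMIs in that library, and the others had 28.8, 11.6 and 36.1 CPM in muscle stem cells, 12.8, 7.96 and 30.9 CPM in endothelial cells, 24.1, 24.8 and 76.1 CPM in mesothelial cells and 61.1, 37.0 and 77.8 CPM in lymphatic cells. Reads of a 3′ library lie at the end of the transcript and do not check a deletion elsewhere in the gene, so the genotype of this library, called KO HFD in what follows, rests on its label.

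Cells were assigned to 14 classes by markers, none of them a member, and each class is called by the cell type whose markers it carried, so that FAP stands for FAP-like. The gate assigned 3665, 3438 and 3985 barcodes, or 88.7%, 91.1% and 91.2% of each library. In 9 of these classes every library held at least 20 cells, and these were compared by a test. They were fibro-adipogenic progenitors (FAPs, the mesenchymal cells of muscle, with 2305, 2039 and 2500 cells), muscle stem cells (MuSCs, 274, 239 and 414), endothelial cells (287, 290 and 239), lymphatic endothelial cells (53, 104 and 62), Schwann cells (30, 28 and 35), mesothelial cells (30, 68 and 45), macrophages (255, 436 and 506), B cells (333, 145 and 85) and T or NK cells (43, 23 and 27). Mural cells (14, 17 and 17), neutrophils (13, 19 and 24), mast cells (9, 10 and 9), tenocytes (7, 13 and 2) and dendritic cells (12, 7 and 20) are given as values only. WT CD shared 7 barcodes with WT HFD and 7 with KO HFD, and WT HFD and KO HFD shared 2. A doublet caller marked 1.26%, 1.09% and 1.33% of barcodes.

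The barcodes outside every class differed between libraries. They numbered 467, 336 and 384, and the 16 myofibre markers, led by Acta1, summed to 120 CPM in those of WT CD against 1850.5 and 1310.0 CPM in those of WT HFD and KO HFD. Members summed to 14094, 20805 and 19511 CPM in the same barcodes. Over all cells, members summed to 16201, 17091 and 17364 CPM, and what part of this difference the unassigned barcodes carried was not tested.

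With gated classes and total UMIs as the scale, nuclear oxidative phosphorylation mRNA made up a similar part of the transcriptome in most classes. Mural cells stood far above and neutrophils far below. FAPs, the largest class, held 15991, 16131 and 16156 CPM, a spread of 88.5 CPM (SD, n = 3 libraries) around a mean of 16093. Mural cells, the contractile cells around vessels, held 30637, 28384 and 28175 CPM, and neutrophils held 6877, 5332 and 7390 CPM. No library of another class came within either of these ranges. The wider clusters with mural markers, described with the other members, held 19903, 19736 and 20315 CPM, inside the range of the other classes. Between them lay T or NK cells with 19681, 21185 and 20572 CPM, Schwann cells with 19485, 19956 and 22790 CPM, and mesothelial cells with 21091, 19346 and 19896 CPM. Macrophages held 18457, 17905 and 20145 CPM and MuSCs 16431, 19786 and 18179 CPM. Endothelial cells held 17045, 16859 and 18095 CPM, lymphatic cells 17188, 17209 and 19020 CPM, and B cells 16296, 16568 and 15023 CPM. Apart from mural cells and neutrophils, classes next to each other in the order of their means overlapped, except that every FAP library lay below every endothelial library.

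**Figure D1:**
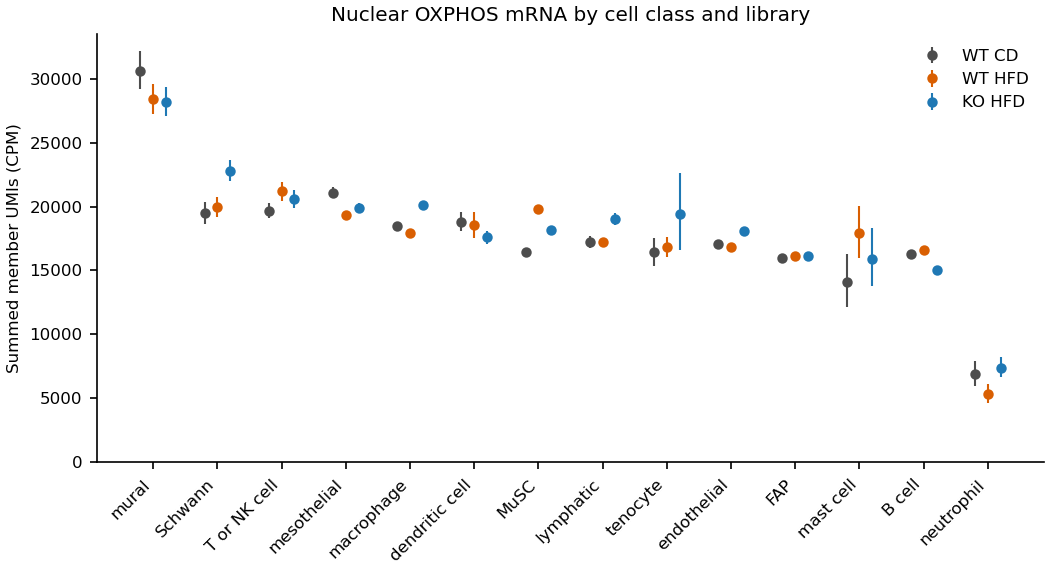
Summed level of the 82 members (vertical axis, CPM) in each cell class (horizontal axis, ordered by the mean of the libraries), with 1 point per library and bars for the exact 95% Poisson interval, which covers counting error only. Mural cells sit between 28175 and 30637 CPM and neutrophils between 5332 and 7390 CPM, with the other classes between.

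The place of B cells and of T or NK cells in this order depended on whether ribosomal protein UMIs were counted in the total. Ribosomal protein genes took 37.1%, 33.7% and 35.5% of UMIs in B cells, 33.2%, 34.6% and 29.6% in T or NK cells and 30.8%, 28.3% and 30.4% in MuSCs, against 17.3%, 16.4% and 17.3% in FAPs and 7.33%, 9.38% and 8.63% in Schwann cells. With ribosomal protein UMIs left out of the total, members reached 25912, 24997 and 23297 CPM in B cells, above FAPs at 19330, 19294 and 19543 CPM in every library. On that scale T or NK cells stood at 29467, 32417 and 29210 CPM and mural cells at 33378, 30599 and 31074 CPM. Their ranges overlapped, so mural cells no longer stood apart. The comparisons of single genes that follow are therefore given with the calls that hold under several scalings.

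The split of these UMIs among the complexes, which no scaling changes, differed between classes more than between libraries. Complex I took between 36.6% and 37.3% of member UMIs in mesothelial cells and between 35.9% and 37.0% in Schwann cells, but between 28.0% and 29.5% in B cells and between 29.0% and 30.2% in T or NK cells. Complex V ran the other way, with 33.3% to 34.1% in B cells and 33.1% to 34.3% in T or NK cells against 25.9% to 27.0% in Schwann cells and 27.4% to 28.5% in mesothelial cells. The ranges of B cells and T or NK cells did not overlap those of Schwann and mesothelial cells. FAPs gave 34.6% to 35.4% to complex I and 29.3% to 29.7% to complex V. Complex II, with 4 genes, took 1.10% to 1.22% in B cells and 1.66% to 1.77% in FAPs.

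**Figure D2:**
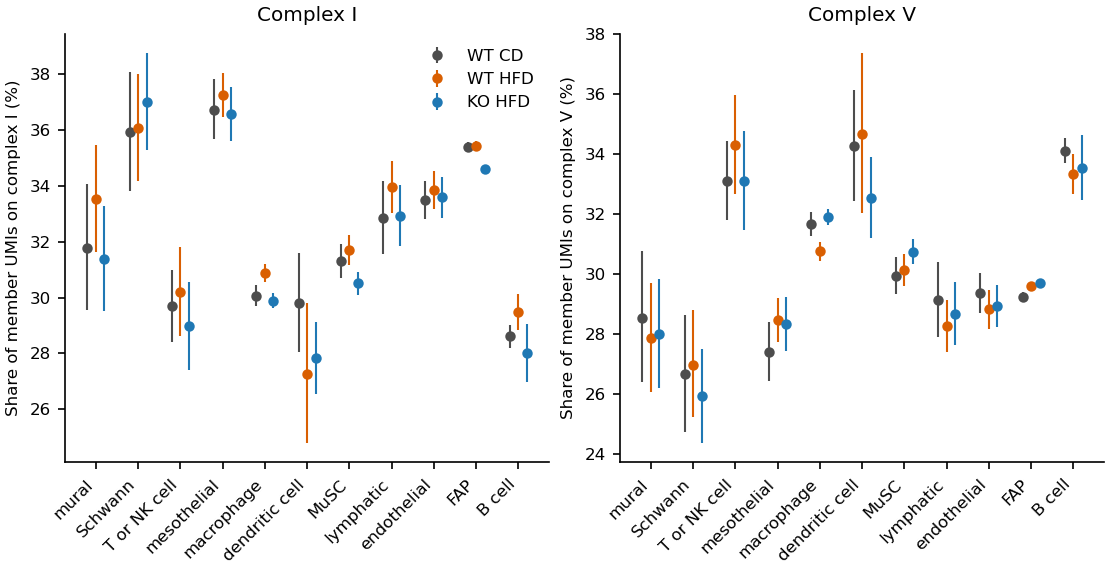
Share of member UMIs (vertical axes, percent) on complex I and on complex V genes in each cell class (horizontal axis), with 1 point per library and exact 95% binomial intervals that cover counting error only. B cells and T or NK cells sit lowest for complex I and highest for complex V among the means of the tested classes, and Schwann and mesothelial cells the reverse.

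Within each complex, transcripts differed widely in abundance. A 3′ library counts 1 tag per molecule whatever the transcript's length, so these CPM levels can be set beside each other without a length term. Over all cells the most abundant members were Ndufa13 of complex I (382 CPM, mean of the 3 libraries), Sdhb of complex II (95.9 CPM), Uqcrh of complex III (527 CPM), Cox4i1 of complex IV (654 CPM) and Atp5e of complex V (632 CPM). The least abundant were Ndufs1 (26.5 CPM), which encodes the largest core subunit of complex I, Sdhc (48.7 CPM), Uqcrc1 (69.1 CPM), Cox4i2 (3.4 CPM) and Atp5mpl (155 CPM).

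Each class was compared with the mean of the other 8 classes by edgeR's quasi-likelihood test over 11111 genes, with the library as a block and Benjamini-Hochberg adjustment. All 82 members passed the count filter, which did not use the class. FAPs had the lowest member mRNA relative to other genes. In FAPs 3 of 82 members rose and 30 fell, where 38.2% of all genes tested were called higher and 13.6% lower. Trimmed mean (TMM) scaling gave 3 and 35 (all genes, 36.9% and 14.8%), DESeq2 gave 8 and 45 (37.1% and 22.6%), and 3 and 30 held in all 3 analyses (35.8% and 13.5%). The median log2 difference of the members, less that of all genes, was -0.37. In endothelial cells 11 members were higher and 16 lower (32.7% and 9.8%), and the count of lower members rose to 29 with TMM, beside 8 higher (26.6% and 13.5%), and to 38 with DESeq2, beside 9 higher (27.5% and 18.9%). In all 3 analyses 8 and 16 held (26.1% and 9.79%). In lymphatic cells the balance turned, from 9 higher and 6 lower (23.4% and 4.68%) to 3 and 24 with TMM (19.1% and 7.33%) and 3 and 25 with DESeq2 (20.2% and 8.29%), and 3 and 6 held in all 3 (18.8% and 4.55%).

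In MuSCs 14 members were higher and 21 lower (all genes, 23.8% and 19.8%), but TMM gave 42 and 5 (33.1% and 12.4%) and DESeq2 26 and 19 (26.6% and 27.5%), and 14 and 5 held in all 3 analyses (23.5% and 12.4%). In macrophages the calls turned on the scaling as well, with 16 higher and 11 lower (22.9% and 26.7%), 50 and 0 with TMM (32% and 15.7%), 48 and 5 with DESeq2 (28.5% and 30.8%), and 16 and 0 in all 3 (22.5% and 15.7%). In B cells 6 were higher and 47 lower (15.5% and 32.1%), against 25 and 11 with TMM (24.4% and 18.6%), 24 and 23 with DESeq2 (22.2% and 33.7%), and 6 and 11 in all 3 (15.1% and 18.6%). T or NK cells had 18 and 6 (14.2% and 13.2%), 14 and 10 with TMM (12.6% and 15.7%), 25 and 5 with DESeq2 (15.8% and 11.1%), and 14 and 5 in all 3 (12.3% and 10.4%). Schwann cells had 24 and 5 (18.9% and 3.78%), 6 and 11 with TMM (13.7% and 6.95%), 13 and 5 with DESeq2 (16.7% and 4.97%), and 6 and 5 in all 3 (13.2% and 3.54%). Mesothelial cells had 37 and 4 (32.1% and 7.27%), 17 and 9 with TMM (27.1% and 10.9%), 24 and 8 with DESeq2 (29.3% and 11.2%), and 17 and 4 in all 3 (26.5% and 7.22%). TMM moved the median of all genes from -0.20 to 0.083 in macrophages, from -0.52 to -0.11 in B cells, from -0.080 to 0.18 in MuSCs and from 0.22 to -0.12 in Schwann cells. Relative to all genes, the median member stood 0.22 higher in macrophages, 0.16 in B cells, 0.38 in T or NK cells, 0.054 in MuSCs and 0.084 in Schwann cells. It stood at -0.30 in endothelial cells, -0.23 in lymphatic cells and -0.12 in mesothelial cells. These differences were nearly the same under TMM and with ribosomal protein UMIs left out. Under DESeq2 the Schwann value became -0.0081, the MuSC value 0.12 and the mesothelial value -0.067. The other values moved as well, to 0.30 in macrophages, 0.23 in B cells and 0.27 in T or NK cells. They became -0.21 in endothelial cells, -0.18 in lymphatic cells and -0.31 in FAPs.

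The counts said to hold in all 3 analyses leave out the scaling without ribosomal protein UMIs, which was added after seeing the data. On that scale edgeR called 3 members higher and 42 lower in FAPs (all genes, 34.9% and 16.6%), 33 and 6 in MuSCs (29.9% and 14.1%), and 39 and 1 in T or NK cells (17.6% and 9.24%). In macrophages, where TMM and DESeq2 had enlarged the excess of higher over lower members, it gave 13 and 15 (21.5% and 29.6%). The other classes had 8 and 29 in endothelial cells (26.5% and 12.7%), 4 and 13 in lymphatic cells (20.6% and 5.5%), 9 and 5 in Schwann cells (14.6% and 4.76%), 19 and 7 in mesothelial cells (27.9% and 9.29%) and 19 and 15 in B cells (22.1% and 20.5%). With this scaling required as well, the 3 higher and 30 lower calls in FAPs held (34.2% and 13.4%), as did 14 and 5 in MuSCs (23% and 12.5%), 8 and 16 in endothelial cells (26.1% and 9.18%), 3 and 6 in lymphatic cells (18.9% and 4.41%), 6 and 5 in Schwann cells (13.3% and 2.85%), 17 and 4 in mesothelial cells (26.7% and 6.75%) and 6 and 11 in B cells (14.5% and 18.8%). Macrophages kept 13 and 0 (21.1% and 15.8%) and T or NK cells 14 and 1 (11.8% and 8.71%).

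**Figure D3:**
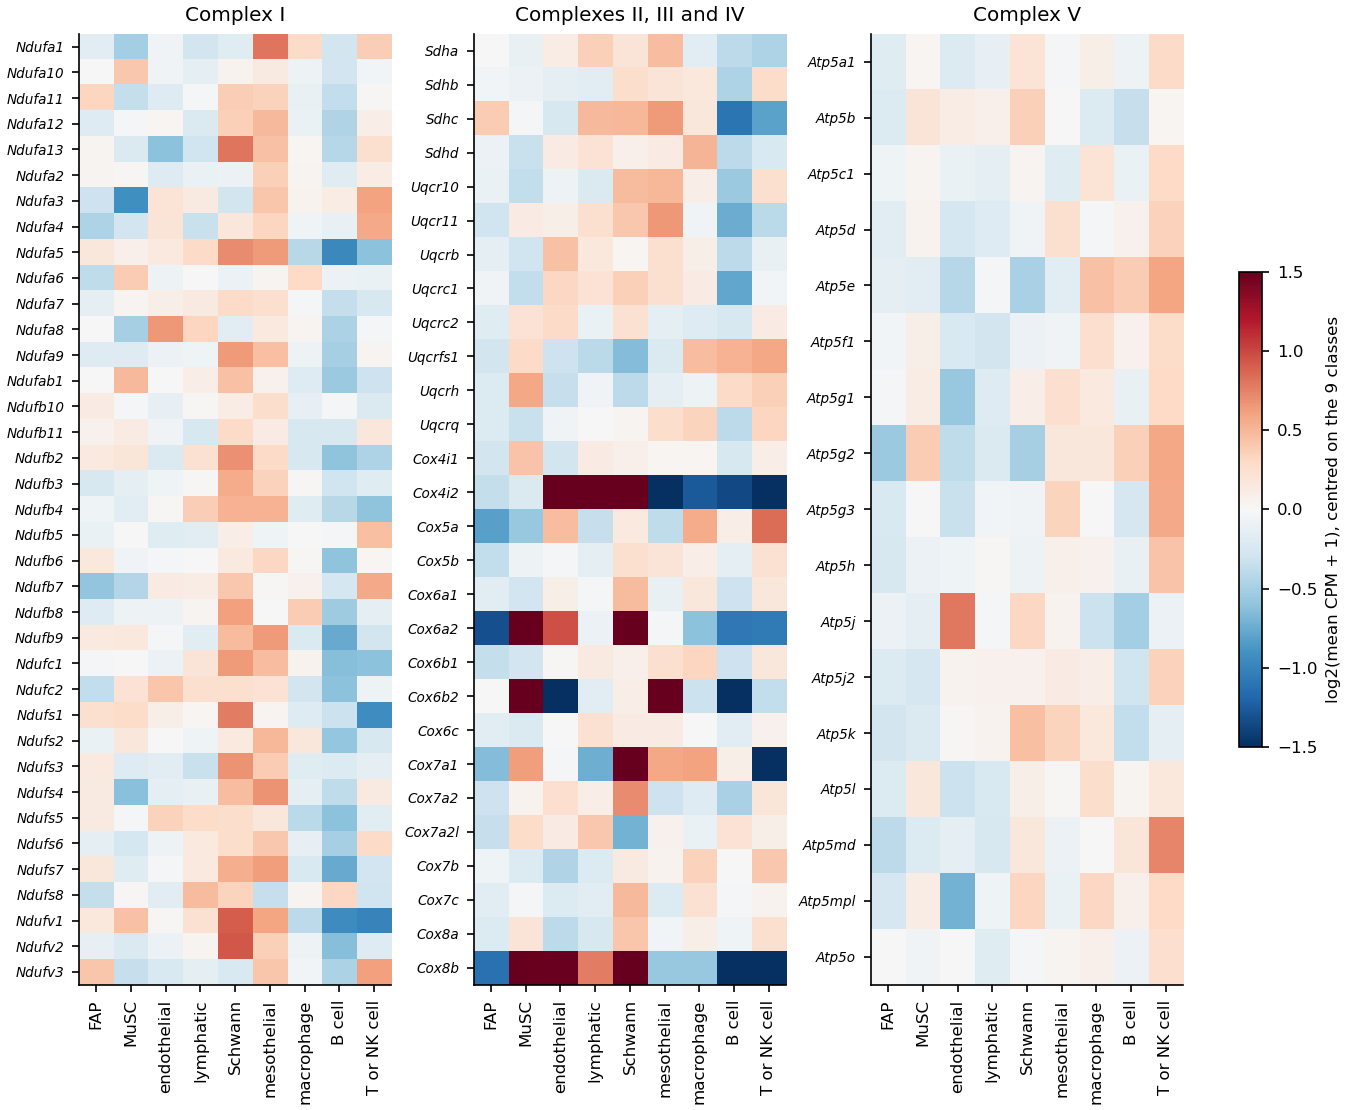
Level of each member, as log2(mean CPM + 1) less its mean over the classes (colour, ends of the scale at -1.5 and 1.5), for the 9 tested classes (columns) and the 82 members (rows, by complex). Cox5a runs from 132 CPM in FAPs to 416 CPM in T or NK cells, and the Cox4i2, Cox6a2, Cox6b2 and Cox8b rows hold the deepest colours.

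In complex I, Ndufv3, an accessory subunit of the NADH-oxidizing module, rose in FAPs, with 166, 173 and 174 CPM against a mean of 128 CPM in the other classes (log2 difference 0.48 ± 0.10 SE, edgeR adjusted p = 1.02e-04). Ndufv2, which carries an iron-sulfur cluster of the same module, was highest in Schwann cells, at 222, 212 and 246 CPM against 111 CPM elsewhere (1.06 ± 0.18, edgeR adjusted p = 2.06e-05). Ndufv1, which binds NADH and FMN, was lowest in T or NK cells, at 36.2, 26.3 and 44.9 CPM against 85.1 CPM (-1.13 ± 0.29, edgeR adjusted p = 0.00351). Ndufv1 was also called lower in macrophages, at 57.0, 52.3 and 56.9 CPM, but not with TMM (edgeR adjusted p = 0.290).

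Ndufa1, which sits in the membrane arm of complex I, reached 310.1, 245 and 358 CPM in mesothelial cells against 165 CPM elsewhere (0.88 ± 0.10, edgeR adjusted p = 1.54e-08). T or NK cells came nearest, at 233, 165 and 276 CPM. Ndufs4, an accessory subunit whose loss is a cause of Leigh syndrome, rose in mesothelial cells as well (142, 140 and 119 CPM, edgeR adjusted p = 7.85e-06) and fell in MuSCs to 39.4, 54.6 and 66.3 CPM (edgeR adjusted p = 1.12e-05). Ndufa3, of the membrane arm, fell in MuSCs to 45.5, 88.0 and 68.9 CPM against 143 CPM (-1.05 ± 0.14, edgeR adjusted p = 2.48e-07) and rose in T or NK cells (237, 191 and 161 CPM, edgeR adjusted p = 0.00296). Its MuSC range lay below every library of FAPs, endothelial cells, lymphatic cells, mesothelial cells, macrophages, B cells and T or NK cells, but overlapped that of Schwann cells, whose lowest library was 77.2 CPM. Ndufb7 fell in FAPs (141, 145 and 140 CPM against 231 CPM, -0.67 ± 0.10, edgeR adjusted p = 5.89e-07), and Ndufa13, also known as Grim19, fell in endothelial cells (262, 255 and 242 CPM against 423 CPM, -0.69 ± 0.10, edgeR adjusted p = 1.25e-06). Ndufs8, which holds iron-sulfur clusters in the arm facing the matrix, rose in lymphatic cells (105, 145 and 150.2 CPM against 93.4 CPM, edgeR adjusted p = 0.00192).

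In complex II, Sdhc, a membrane anchor of succinate dehydrogenase, fell in B cells to 18.2, 27.3 and 10.2 CPM against 47.2 CPM (-1.20 ± 0.21, edgeR adjusted p = 2.45e-05) and rose in FAPs (49.96, 57.8 and 52.6 CPM, 0.42 ± 0.13, edgeR adjusted p = 0.00894). Sdhd, the other anchor, rose in macrophages (86.1, 78.7 and 92.7 CPM against 58.0 CPM, 0.58 ± 0.14, edgeR adjusted p = 7.31e-04). In complex III, Uqcrfs1, the Rieske iron-sulfur protein, rose in B cells (114, 131 and 137 CPM against 88.1 CPM, 0.60 ± 0.12, edgeR adjusted p = 1.78e-04). Uqcrh, the hinge protein next to cytochrome c1, rose in MuSCs to 728, 861 and 909 CPM against 540.1 CPM elsewhere (0.65 ± 0.09, edgeR adjusted p = 2.57e-07).

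In complex IV, Cox5a varied most among the subunits with a mean of at least 100 CPM in every tested class, with 3.16-fold between its highest and lowest class. It encodes a subunit on the matrix side of the enzyme. It was lowest in FAPs at 133, 138 and 124 CPM (-0.91 ± 0.11 against the other classes, edgeR adjusted p = 1.64e-08) and highest in T or NK cells at 337, 434 and 475 CPM (0.93 ± 0.13, edgeR adjusted p = 1.56e-06). Macrophages also held more, at 332, 313 and 375 CPM (0.62 ± 0.10, edgeR adjusted p = 2.84e-06), and MuSCs less, at 115, 183 and 172 CPM (-0.64 ± 0.11, edgeR adjusted p = 2.15e-05). FAP libraries thus lay below every library of macrophages, endothelial cells, B cells and T or NK cells. Over the 3 analyses Cox5a was called higher in 3 classes and lower in 4. Cox4i1, the ubiquitous partner of Cox4i2, rose in MuSCs to 937, 1015 and 958 CPM against 701 CPM (0.48 ± 0.08, edgeR adjusted p = 1.64e-05). Cox7a2l rose in lymphatic cells (435, 357 and 426 CPM) and fell in Schwann cells (135, 196 and 231 CPM against 329.8 CPM, -0.77 ± 0.16, edgeR adjusted p = 2.97e-04).

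In complex V the named differences were those of Atp5e, Atp5md, Atp5mpl, Atp5g2 and Atp5j. Atp5e, the epsilon subunit of the F1 part, was high in lymphoid cells, with 866, 799.9 and 803 CPM in B cells (0.44 ± 0.09, edgeR adjusted p = 8.24e-05) and low in Schwann cells at 406, 466 and 477 CPM (-0.54 ± 0.12, edgeR adjusted p = 6.12e-04). Atp5md, a small membrane subunit that stabilizes dimers, rose in T or NK cells to 345, 296 and 340.3 CPM against 187 CPM (0.83 ± 0.13, edgeR adjusted p = 1.11e-05). Atp5mpl, another small membrane subunit, fell in endothelial cells to 82.1, 111 and 109 CPM against 178 CPM (-0.82 ± 0.11, edgeR adjusted p = 2.04e-07). Atp5j, coupling factor 6 of the peripheral stalk, stood at 643, 677 and 718 CPM in endothelial cells against 369 CPM elsewhere (0.90 ± 0.09, edgeR adjusted p = 1.79e-09), and is named here after its values were seen.

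Not every member varied. Atp5o of the peripheral stalk and Cox6c differed by only 1.36-fold between the highest and the lowest of the 9 classes. Atp5o and Ndufs1 were called in no class by edgeR, although Ndufs1 spanned 3.45-fold at 12.2 to 42.1 CPM, where few UMIs stood behind each value.

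Cox4i2 was the member with the most restricted distribution. Mural cells held 548, 588 and 750.1 CPM, and Cox4i2 supplied 39.5%, 45.8% and 47.4% of the UMIs of the Cox4 pair there. In the wider clusters with mural markers, described with the other members, these shares were 21.4%, 24.8% and 22.2%. The next class, endothelial cells, held 25.6, 11.5 and 14.4 CPM, or 4.32%, 1.86% and 2.28% of the pair. Lymphatic cells held 6.79, 15.1 and 5.36 CPM, FAPs 1.54, 1.03 and 1.12 CPM, and mesothelial cells 0 UMIs in each library. With the libraries pooled, a Cox4i2 UMI was seen in 42 of 48 mural cells (87.5%, exact 95% interval 74.7% to 95.3%, median 3592 UMIs per cell). The interval treats the cells as independent and does not cover the spread between libraries. The share was 3 of 1197 macrophages (0.251%), although these had a median of 9115 UMIs each. How much free mRNA of this gene each class picked up was not estimated. Mural cells were too few for the test. In endothelial cells Cox4i2 was called higher than in the other tested classes (edgeR adjusted p = 2.87e-09), as it was in lymphatic cells (edgeR adjusted p = 8.72e-05).

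Mural marker mRNA moved with part of the endothelial signal. Endothelial cells without any mural marker UMI, 681 of 816, held 13.4 CPM of Cox4i2 (exact 95% interval 9.21 to 18.8), and the 135 with at least 1 such UMI held 31.6 CPM (19.6 to 48.4). Both intervals pool the libraries and cover counting error only. The 6 mural markers summed to 105 CPM in endothelial cells against 11534 CPM in mural cells. Over 42 points of class and library, the members whose log2 levels most resembled that of Cox4i2 were Cox7a1 (Pearson r = 0.65), Atp5k (0.64) and Atp5b (0.60). These points share libraries and depth and are a description only.

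Mural cells stood above the tested classes in many other members too. In every library, 30 of 82 members were higher in mural cells than in all 9 tested classes, 52 fell within their range and 0 below it, where 3.62% of all genes tested lay above and 1.4% below. Among genes of at least 20 CPM over all cells, 28 of 77 members lay above, where 3.94% of genes lay above and 1.99% below. The median ratio of mean levels was 1.56 for members and 0.823 for all genes tested. Cox8a, the ubiquitous isoform of a small subunit of complex IV, reached 2136, 1644 and 1735 CPM in mural cells, whereas its highest value in a tested class was 1073 CPM. Ndufa5 reached 475, 312 and 293 CPM against at most 216 CPM. Sdhc reached 219, 192 and 117 CPM. The mural values rest on 6447 member UMIs in 48 cells. Clustering without the members placed 242 cells in clusters with mural markers, among them all 48 gated mural cells, 115 cells gated as endothelial, 18 gated as FAP and 61 without a class. Members in those clusters summed to 19903, 19736 and 20315 CPM and Cox4i2 to 155, 189 and 199.9 CPM. The 133 cells among them that carried another gate held 399 CPM of mural markers and 16001 CPM of members. In neutrophils 52 members lay below all 9 classes in every library, 30 within and 0 above, from 748 member UMIs and a median ratio of 0.265. Of all genes tested, 16.6% lay below and 4.2% above. Among genes of at least 20 CPM over all cells, 52 of 77 members lay below, where 25.6% of genes lay below and 4.71% above, but the median ratio of those members, 0.281, was close to that of those genes, 0.254.

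Cox6b2, known as the testis isoform of Cox6b, appeared in both a mesothelial and a myogenic class. Mesothelial cells held 34.8, 49.7 and 45.2 CPM against 8.37 CPM elsewhere (3.01 ± 0.29, edgeR adjusted p = 4.31e-10), and MuSCs 19.7, 40.9 and 28.7 CPM (2.36 ± 0.23, edgeR adjusted p = 8.29e-10). It supplied 6.67%, 11.2% and 8.98% of the UMIs of the Cox6b pair in mesothelial cells and 6.58%, 10.2% and 9.04% in MuSCs. FAPs gave 2.68%, 2.12% and 2.74%, and endothelial cells 0%, 0.495% and 0.525%, so the mesothelial and MuSC ranges overlapped each other and neither overlapped the range of FAPs or endothelial cells. Unlike the muscle isoforms, its level in MuSCs was close in cells without any myofibre UMI (27.7 CPM) and in cells with one (30.3 CPM).

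The muscle isoforms Cox6a2, Cox8b and Cox7a1 moved together with myofibre mRNA in MuSCs, but not in every class. In MuSCs Cox8b was detected at 14.4, 25.3 and 19.5 CPM (edgeR adjusted p = 5.12e-09) and Cox6a2 at 12.9, 29.3 and 18.8 CPM (2.19 ± 0.32, edgeR adjusted p = 9.97e-07). Both were highest in WT HFD and lowest in WT CD, as were the 16 myofibre markers, at 442, 775 and 557 CPM with Acta1 the most abundant. The 204 MuSCs without a myofibre UMI held 7.19 CPM of Cox6a2, 11.3 CPM of Cox8b and 2.06 CPM of Cox7a1, and the 723 with one held 23.0, 21.7 and 8.18 CPM. Endothelial cells split likewise, with 4.0 CPM of Cox6a2 in 476 cells without a myofibre UMI and 21.7 CPM in 340 cells with one. In FAPs the myofibre markers summed to 59.8, 56.0 and 58.3 CPM. There Cox7a1 was at 1.21, 2.26 and 3.08 CPM, Cox8b at 0.627, 1.08 and 1.43 CPM and Cox6a2 at 1.88, 1.59 and 1.56 CPM. All 11 myofibre markers that could be tested were higher in MuSCs, 8 of 11 in endothelial cells and 4 of 11 in Schwann cells (all genes higher, 23.8%, 32.7% and 18.9%), and TMM gave 11, 8 and 2. Free myofibre mRNA and expression by the cells cannot be told apart here. Over all barcodes Cox8b had 58, 267 and 257 UMIs, of which 7, 174 and 144 lay in barcodes without a class. Macrophages held 6.29, 6.15 and 7.30 CPM of Cox7a1 (edgeR adjusted p = 0.0463, a call lost with ribosomal protein UMIs left out), with 5.46 CPM in the 766 cells without a myofibre UMI and 8.43 CPM in the 431 with one.

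**Figure D4:**
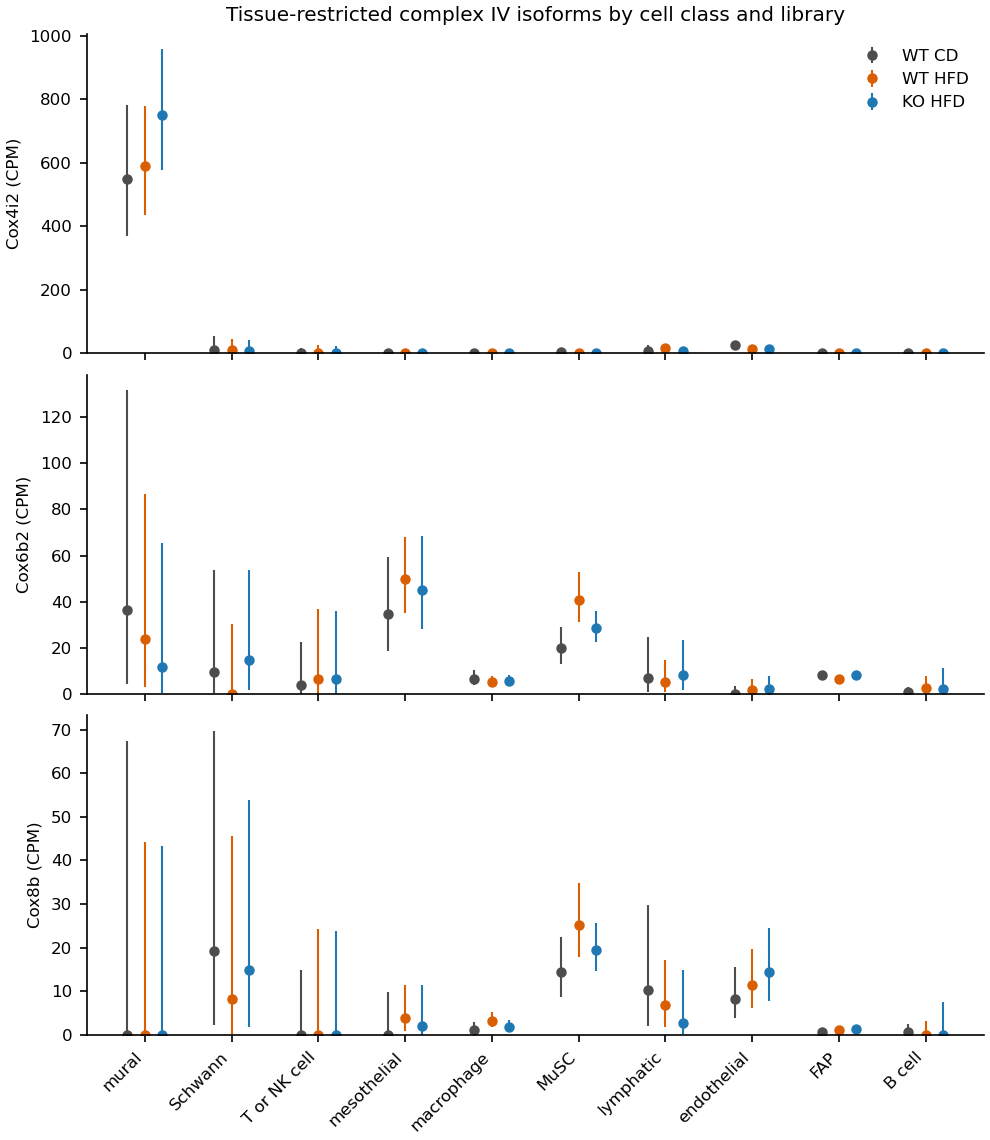
Level of Cox4i2, Cox6b2 and Cox8b (vertical axes, CPM) by cell class (horizontal axis), with 1 point per library and exact 95% Poisson intervals that cover counting error only. Cox4i2 stands at 548 to 750.1 CPM in the gated mural cells. Its highest mean in a tested class is 17.1 CPM, in endothelial cells. Cox6b2 is highest among tested classes in MuSCs and mesothelial cells.

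The c ring of complex V is built from 1 mature peptide that Atp5g1, Atp5g2 and Atp5g3 all encode, and the 3 genes were used in different proportions. Atp5g2 gave 57.9%, 57.3% and 55.7% of their UMIs in B cells and 52.4%, 54.1% and 53.8% in MuSCs but 40.5%, 39.8% and 41.0% in FAPs. Atp5g1 ran the other way, with 26.3%, 27.8% and 27.6% in B cells and 38.6%, 39.2% and 37.4% in FAPs. Atp5g3 held between 14.8% and 24.3% in the tested classes and 44.9%, 35.6% and 38.3% in the gated mural cells. In the wider clusters with mural markers its shares were lower, and that of WT HFD lay inside the range of the tested classes. In CPM, Atp5g2 fell in FAPs (276, 292 and 294 CPM, -0.62 ± 0.10, edgeR adjusted p = 2.04e-06) and in Schwann cells (-0.55 ± 0.14, edgeR adjusted p = 0.00279) and rose in B cells (586, 575 and 457 CPM, 0.42 ± 0.09, edgeR adjusted p = 3.67e-04).

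The promoters of these isoform genes are shown because the paralogs encode the same or closely related proteins and differ in where their mRNA was found. RefSeq promoter windows (GRCm38.p6, from 250 bases before to 50 bases after the gene start) were matched for 67 of 82 members. They were searched on both strands for the letters of motifs known from promoters of these genes: NRF1 (GCGCA followed directly by TGCGC), GABPA (CCGGAAG), YY1 (AAGATGGCG) and ERRA (TCAAGGTCA), and each sequence shown holds at most 1 match. The last 170 bases before each gene start follow, 5′ to 3′ on the gene's strand, with motif matches in capitals. Cox6b1, the ubiquitous isoform (chr7:30626115-30626284, minus strand), has a GABPA match that starts 28 bases before the gene start, on the opposite strand. Cox6b2 (chr7:4753095-4753264, minus strand) and Cox8b (chr7:140900447-140900616, minus strand) have no match in these bases.
Cox6b1: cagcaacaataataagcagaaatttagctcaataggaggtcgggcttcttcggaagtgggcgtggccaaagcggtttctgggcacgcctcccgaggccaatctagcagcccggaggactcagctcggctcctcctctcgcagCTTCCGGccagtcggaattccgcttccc
Cox6b2: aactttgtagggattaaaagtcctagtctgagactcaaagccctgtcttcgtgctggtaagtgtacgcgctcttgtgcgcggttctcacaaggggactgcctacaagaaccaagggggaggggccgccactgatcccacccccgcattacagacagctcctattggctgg
Cox8b: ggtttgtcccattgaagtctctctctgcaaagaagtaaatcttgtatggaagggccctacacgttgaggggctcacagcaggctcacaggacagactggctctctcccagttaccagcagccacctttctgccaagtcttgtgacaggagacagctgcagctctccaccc

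Among the c-ring genes, Atp5g1 (chr11:96075632-96075801, minus strand) has no match in these bases, Atp5g2 (chr15:102671048-102671217, minus strand) has an NRF1 match starting 42 bases before the gene start, and Atp5g3 (chr2:73911327-73911496, minus strand) has an ERRA match starting 52 bases before it, on the opposite strand.
Atp5g1: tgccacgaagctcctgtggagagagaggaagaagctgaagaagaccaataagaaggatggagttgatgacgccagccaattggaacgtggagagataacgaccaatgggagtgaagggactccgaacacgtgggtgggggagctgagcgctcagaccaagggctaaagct
Atp5g2: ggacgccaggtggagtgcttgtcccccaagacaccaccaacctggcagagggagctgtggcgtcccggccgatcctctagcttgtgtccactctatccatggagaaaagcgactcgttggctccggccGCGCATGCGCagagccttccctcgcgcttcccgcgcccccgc
Atp5g3: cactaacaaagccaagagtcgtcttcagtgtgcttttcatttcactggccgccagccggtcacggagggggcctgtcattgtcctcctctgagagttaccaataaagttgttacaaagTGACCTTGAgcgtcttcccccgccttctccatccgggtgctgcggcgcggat

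At least 1 of the 4 motifs stood in the windows of 27 of the 67 matched members (40.3%), against 24.2% of 8758 tested genes with a window and 12.5% of all 27025 genes with a window. NRF1 stood in 7.46% of members (Atp5g2, Atp5k, Cox6a1, Ndufa11 and Uqcrc1), 2.17% of tested genes and 1.07% of all genes. GABPA stood in 25.4%, 19.7% and 9.93%, YY1 in 10.4%, 3.59% and 1.64%, and ERRA in 2.99% (Atp5g3 and Sdhd), 0.285% and 0.466%. The median member window had 56.4% G and C and 14 CpG dinucleotides, against 60.0% and 16 in tested genes. Cox8b had the fewest, with 1 CpG, and Cox7a1 and Ndufc2 followed with 4 each. Cox4i2, Cox6a2 and Cox4i1 were among the members not matched. A match is a description of letters and was not tied to any level.

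The 13 mRNAs encoded by mitochondrial DNA were set beside the nuclear members. In FAPs 11 of 13 fell, with TMM as without it (all genes lower, 13.6%), where 30 of 82 nuclear members fell as well. In endothelial cells 13 of 13 rose with either scaling (all genes, 32.7% higher and 9.8% lower), where 11 nuclear members rose and 16 fell. In MuSCs 11 of 13 rose (all genes, 23.8% higher and 19.8% lower), and 13 of 13 with TMM (33.1% and 12.4%), where 14 nuclear members rose and 21 fell (42 and 5 with TMM). The difference between the nuclear and mitochondrial groups was not tested. The ratio of nuclear member UMIs to these UMIs was 0.520 in FAPs, 0.562 in macrophages, 0.370 in MuSCs, 0.355 in B cells, 0.303 in endothelial cells and 0.296 in mural cells (means of the 3 libraries). In endothelial and mural cells it depended on barcodes of high mitochondrial share. Without barcodes of under 500 genes or over 10% mitochondrial UMIs it was 0.417 and 0.486.

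Genes that act around the respiratory chain were read from fixed lists, each set beside the share of all genes called in the same class with total UMIs as the scale. In mesothelial cells 32.1% of all genes were higher and 7.27% lower. There 12 of 39 tested assembly factors rose (30.8%) and 1 fell, 24 of 77 mitochondrial ribosomal protein genes rose (31.2%) and 0 fell, and 4 of 13 genes of the tricarboxylic acid cycle, which feeds complexes I and II, rose (30.8%) and 0 fell, so that the rising shares were near that of all genes. With TMM these were 6 and 2 assembly factors, 14 and 5 mitochondrial ribosomal protein genes and 4 and 0 cycle genes (all genes, 27.1% and 10.9%). Fatty acid oxidation genes lay above that share, with 8 of 13 rising (61.5%) and 0 falling with either scaling.

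In FAPs 10 assembly factors rose (25.6%, all genes 38.2%) and 5 fell (12.8%, all genes 13.6%), with 9 and 5 under TMM. In MuSCs 3 assembly factors rose and 16 fell (7.69% and 41.0%, all genes 23.8% and 19.8%), and 9 mitochondrial ribosomal protein genes rose and 25 fell (11.7% and 32.5%). TMM gave 4 and 10 assembly factors and turned the ribosomal list to 17 and 8 (22.1% and 10.4%, all genes 33.1% and 12.4%). In macrophages 3 assembly factors rose and 12 fell (7.69% and 30.8%, all genes 22.9% and 26.7%), and TMM turned this to 12 and 4 (30.8% and 10.3%, all genes 32% and 15.7%). Glycolysis genes rose for 13 of 16 in macrophages (81.3%) and fell for 1, with 14 and 1 under TMM, and in T or NK cells 6 rose (37.5%, all genes 14.2%) and 1 fell (5 and 2 with TMM). In B cells 0 of 13 fatty acid oxidation genes rose and 10 fell (76.9%, all genes 32.1%), or 5 with TMM (38.5%, all genes 18.6%). Of 10 regulators, 4 rose and 0 fell in T or NK cells with either scaling (all genes, 14.2% and 13.2%), and 1 rose and 7 fell in macrophages (2 and 3 with TMM). Of 81 cytosolic ribosomal protein genes, 80 rose in B cells, 79 in MuSCs and 78 in T or NK cells (all genes higher, 15.5%, 23.8% and 14.2%), and 79 fell in Schwann cells and 77 in endothelial cells (all genes lower, 3.78% and 9.8%). Under TMM these counts were 80, 81, 74, 79 and 79 (24.4%, 33.1%, 12.6%, 6.95% and 13.5%).

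The 8 tested electron carriers and other subunits outside the name rule gave 3 higher and 0 lower in macrophages (37.5%, all genes 22.9% and 26.7%; 5 and 0 with TMM, all genes 32% and 15.7%) and 4 and 1 in mesothelial cells (all genes, 32.1% and 7.27%), or 3 and 1 with TMM (27.1% and 10.9%). Among them Atpif1, the inhibitor of the ATP synthase, was high in macrophages at 385, 416 and 456 CPM and in mesothelial cells at 468, 428 and 411 CPM, and low in B cells at 108, 129 and 89.7 CPM. Ndufa4l2, a paralog of Ndufa4 induced by low oxygen, was detected at 1114, 1056 and 1887 CPM in mural cells and 49.1, 63.4 and 51.9 CPM in FAPs, and at 0 UMIs in MuSCs and T or NK cells. Its highest class was thus that of Cox4i2. Ndufa4 itself was at 329, 276 and 176 CPM in mural cells and 289, 303 and 292 CPM in FAPs, ranges that overlapped. Lists of other cell types and states are given beside the same shares. The 6 tested cycling genes were all higher in MuSCs and T or NK cells (all genes, 23.8% and 14.2%), and 5 in macrophages (22.9%). The 10 dissociation stress genes were all higher in MuSCs and 9 in Schwann cells (all genes, 23.8% and 18.9%; 10 and 6 with TMM), while 8 fell in B cells and 9 in T or NK cells (32.1% and 13.2%). Both erythroid genes tested were higher in MuSCs, from 371 CPM in KO HFD and 0 UMIs in the other libraries, and no adipocyte marker was abundant enough to test. Their part in the member differences was not tested.

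In FAPs member sums lay close together in the 3 libraries. The member sum of WT HFD was 0.013 above that of WT CD on the log2 scale (95% interval 0.0055 to 0.020, counting error only), a ratio that TMM turned to -0.071. KO HFD differed from WT HFD by 0.0022 (-0.0047 to 0.0091), a ratio that TMM raised above this interval. A log2 ratio of 0.32 in either direction, that is 25% more or 20% less, was taken as the limit for single genes. None of the 77 members with at least 20 CPM passed it in either comparison (0 of 77), whereas 6.92% of genes passed it upward and 2.41% downward for the diet, and 2.67% and 2.1% for the genotype. Among these 77 members, the largest difference for the diet was Ndufa10, at 65.3 CPM in WT CD and 77.4 CPM in WT HFD. Sdhc followed, with a log2 ratio of 0.21. For the genotype the largest was Atp5md, at 156, 137 and 157 CPM. FAP complex I took 35.4%, 35.4% and 34.6% of member UMIs, the last with an exact 95% interval of 34.4% to 34.7% that lay below the other 2.

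**Figure D5:**
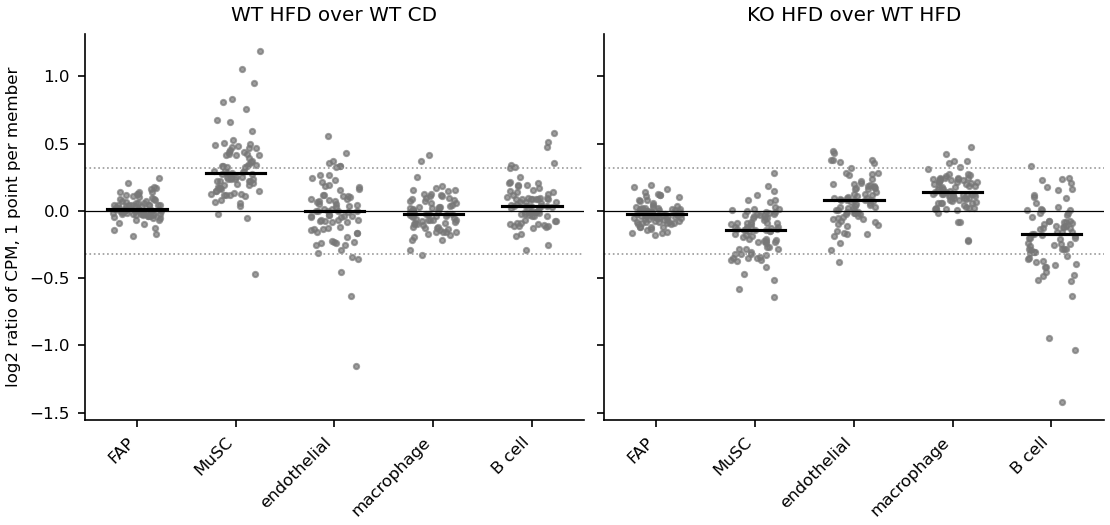
Log2 ratio of each measured member between libraries (vertical axes) for WT HFD against WT CD and KO HFD against WT HFD in 5 classes (horizontal axis), with 1 point per gene, a black bar at the median and dotted lines at log2 ratios of -0.32 and 0.32. FAP members lie inside the dotted lines, and MuSC members lie mostly above 0 for the diet and below 0 for the genotype.

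With total UMIs as the scale, MuSCs showed the largest library difference among the 9 tested classes. Members summed to 16431 CPM in WT CD and 19786 CPM in WT HFD, 20.4% higher (log2 ratio 0.27, 0.24 to 0.29). Of 80 measured members 77 were higher in WT HFD, 35 of them past the limit and 1 lower past it, where 37.8% of all measured genes passed it upward and 10.6% downward and the median gene stood 0.20 higher. Ndufa3 went from 45.5 to 88.0 CPM, Uqcrc1, a core protein of complex III, from 37.2 to 66.2 CPM, and Sdhd from 37.2 to 62.8 CPM. KO HFD lay between, at 18179 CPM (log2 ratio to WT HFD -0.12, -0.14 to -0.10), with 0 members past the limit upward and 13 downward (all genes, 9.75% and 17.2%). Sdhd was at 42.0 CPM in KO HFD, Sdhb, the iron-sulfur subunit of complex II, at 81.8 CPM against 113 CPM, and Ndufa4 at 324 CPM against 416 CPM. TMM scaling took the ratios to 0.052 and -0.018, smaller than the TMM ratios of -0.12 in B cells for the diet and 0.14 in macrophages for the genotype label, so that this rank was lost. Depth and state moved with the libraries: the median UMIs per MuSC were 4514, 5370 and 5738, the cycling genes, led by Stmn1, summed to 180, 695 and 482 CPM, and the myofibre markers are given above. In MuSCs without a cycling UMI the ratios were 0.21 and -0.080, and in those without a myofibre UMI 0.30 and -0.15.

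In macrophages the larger ratio was that of KO HFD to WT HFD. Members summed to 18457, 17905 and 20145 CPM, so that WT HFD stood at -0.044 (-0.059 to -0.028) against WT CD, with 2 members past the limit upward and 1 downward (all genes, 17% and 12.5%). Classes from Leiden clusters, made without the members, turned this ratio to 0.064. KO HFD stood 0.17 above WT HFD (0.16 to 0.18), with 72 of 77 members higher, 6 past the limit upward and 0 downward (all genes, 10.8% and 9.71%), and the median gene 0.038 higher. The top 3 were small membrane subunits of complex V. Atp5md went from 168 to 234 CPM, Atp5mpl from 180 to 241 CPM and Atp5k, the e subunit, from 184 to 237 CPM, with WT CD at 190.2, 198 and 213 CPM. The 13 mitochondrially encoded mRNAs were at 31080, 37588 and 32686 CPM in the same cells, and the cycling genes at 289, 285 and 463 CPM. In macrophages without a cycling UMI the ratio of KO HFD to WT HFD was 0.15.

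Endothelial ratios were -0.016 (-0.045 to 0.013) for the diet, with 7 members past the limit upward and 5 downward (all genes, 18.7% and 14.9%), and 0.10 (0.072 to 0.13) for the genotype, with 7 and 1 (15% and 19%). The endothelial ratio for the diet became -0.059 with classes from Leiden clusters and -0.072 in cells without a cycling UMI, and that for the genotype 0.19 in cells without a cycling UMI. In B cells they were 0.024 (-0.00043 to 0.048), with 6 and 0 members (23.6% and 8.07%), and -0.14 (-0.18 to -0.10), with 1 and 18 of 77 members (23.2% and 25.1%). The B cell ratio for the diet became -0.12 with TMM, -0.0044 with a stricter marker gate and 0.23 with classes from Leiden clusters. Ndufs6, an accessory subunit of complex I, went from 125 to 61.1 CPM and Uqcrc1 from 51.1 to 26.5 CPM between WT HFD and KO HFD in B cells, from 85 cells in KO HFD with a median of 4485 UMIs against 145 cells with 6917. Macrophages and B cells thus lay on opposite sides for the same pair of libraries, and the difference between them was not tested.

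The 4 smaller tested classes gave ratios from fewer cells. Lymphatic cells stood at 0.0018 (-0.047 to 0.050) for the diet and 0.14 (0.10 to 0.19) for the genotype label, and Schwann cells at 0.034 (-0.051 to 0.12) and 0.19 (0.11 to 0.27). Mesothelial cells stood at -0.12 (-0.16 to -0.085) and 0.040 (0.0035 to 0.077), and T or NK cells at 0.11 (0.042 to 0.17) and -0.042 (-0.11 to 0.028). The sign of the genotype ratio was therefore negative in MuSCs, B cells and T or NK cells and positive in the other 6 tested classes, with 0 inside the interval in FAPs and T or NK cells. Over the 9 classes together, 114 of 696 measured pairs of member and class were past the limit upward and 42 downward for the diet (all genes, 26% and 16.5% of pairs), and at 1.5-fold 30 and 12 were (13.4% and 8.76%). With TMM the diet counts were 67 and 61 of 697 pairs (all genes, 21.2% and 20.5%). For the genotype label 69 and 78 of 698 pairs were past the limit (19% and 21.9%), and 16 and 23 at 1.5-fold (9.74% and 10.9%), and with TMM 68 and 75 of 697 were past the limit (19.5% and 21.6%). With either scale, the members' shares in both comparisons lay below those of all genes. A gene was measured from 20 CPM in either library, which is few UMIs in the smaller classes. Most members were more abundant than this limit, and shares of genes at matched abundance are not given.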

How the data were processed

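The deposited files hold UMI counts per gene and cell barcode, made by the authors with Cell Ranger (version 6.1.1, mm10, per the submitters' processing notes), as filtered matrices. These counts were used as deposited, with no further cell filter. Reads assigned to several genes are not counted by this pipeline, so members with near-identical pseudogenes may be undercounted.

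Per-cell UMIs were scaled to 10000, and each cell took the class with the highest mean marker score if this was at least 0.25 and led the next class by 0.1. Doublets were called with Scrublet and kept. Counts were summed by class and library and divided by total UMIs (CPM). Classes were compared with edgeR 4.0.16 (R 4.3.3) with total UMIs as library size and the library as block, each class against the mean of the other 8, at an adjusted p of 0.05. The 3 libraries, which differ in diet and genotype, served as replicates of a class. The block took up any library shift shared by all classes. The p-values thus rest on the remaining scatter of the sums between libraries, taken over all tested classes together. Alternatives were TMM factors, DESeq2 1.42.0, other totals, filters, gates, Leiden clustering without the members (scanpy 1.11.5), and leaving out a library. The test was checked on simulated counts. Libraries were compared by ratio, with 95% intervals that cover counting error only.

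Named genes were the isoform pairs, the 3 members with the largest rise and fall per class on 1 side in all 3 libraries, the 3 with the largest difference per library contrast at 50 CPM or more, the most and least abundant per complex, and those most like Cox4i2. Members, lists and tests were chosen with earlier results of these data known. Protein sequences were not used here.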

Additional observations from a re-analysis of the deposited data

How the results depend on the processing

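Over the 738 pairs of member and class, 138 were called higher and 146 lower (all genes, 24.6% and 14.6% of pairs). TMM gave 168 and 134 (25.1% and 12.9%), DESeq2 180 and 173 (24.9% and 18.8%), no filter beyond 1 UMI 112 and 108 (14.7% and 6.90%), and the fit with no replicate block for the library 134 and 139 (24.6% and 14.4%), so that the pairing by library changed neither count by over 1.5 times. Leaving out 1 library gave 87 to 99 higher and 86 to 99 lower. Without WT CD they were 87 and 91 of 729 pairs (20.9% and 9.85%), and without KO HFD 87 and 86 (20.2% and 9.54%). Of 646 values of named genes under alternatives, 594 kept their direction and side of the threshold, 52 kept only the direction and 0 reversed.

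Ratios between libraries rest on 1 library each, so no block applies to them. For WT HFD against WT CD, TMM reversed the FAP ratio (-0.071) and gave 0.052 in MuSCs, -0.062 in macrophages and -0.12 in B cells. Leiden classes reversed the macrophage ratio (0.064) and gave 0.0026 in FAPs, 0.40 in MuSCs, -0.059 in endothelial cells and 0.23 in B cells. The stricter gate gave -0.028 in macrophages and -0.0044 in B cells. Cells with no myofibre UMI, a choice made after seeing the data, gave 0.30 in MuSCs and 0.059 in B cells, and cells with no cycling UMI, likewise, gave 0.21 in MuSCs, -0.072 in endothelial cells and -0.019 in macrophages. For KO HFD against WT HFD, TMM gave 0.035 in FAPs, -0.018 in MuSCs and 0.14 in macrophages, and Leiden classes -0.16 in MuSCs, 0.12 in macrophages and -0.22 in B cells. The stricter gate gave 0.15 in macrophages, cells with no myofibre UMI -0.15 in MuSCs and 0.16 in macrophages, and cells with no cycling UMI -0.080, 0.19 and 0.15 in MuSCs, endothelial cells and macrophages. For the diet, 114 pairs were higher and 42 lower past the limit. TMM gave 67 and 61 (all genes, 21.2% and 20.5%), and a 1.5-fold limit 30 and 12. For the genotype label, 69 and 78 became 16 and 23 at 1.5-fold. Leiden mural clusters gave Cox4i2 shares of 21.4%, 24.8% and 22.2% and Atp5g3 shares of 29.1%, 23.5% and 25.6%. Without barcodes of under 500 genes or over 10% mitochondrial UMIs, the ratio of nuclear to mitochondrially encoded UMIs was 0.417 in endothelial cells, 0.388 in B cells and 0.486 in mural cells. Where a value changed, the cause was not tested. Depth limited Cox4i2, Cox7a1 and Cox8b outside their highest classes, where many libraries held 0 to 3 UMIs.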
